A study of Mus musculus with 2 samples.

Results

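In single-cell RNA sequencing of mouse tumour leukocytes, 2599 of 22044 droplets (11.8%) held RNA of a T cell and of a myeloid cell at once. They were chosen by 2 gates on raw UMIs (counts of distinct captured RNA molecules), of at least 2 UMIs over Cd3d, Cd3e and Cd3g and at least 2 UMIs of Csf1r, among droplets with at least 200 genes and at most 10% mitochondrial UMIs, with doublets kept. Cd3d, Cd3e and Cd3g encode the signalling chains of the T cell receptor complex, and Csf1r encodes the receptor for colony stimulating factor 1 on monocytes and macrophages. The library labelled Ythdf2 cKO held 982 such mixed droplets among 9865 (9.95%, 9.37 to 10.6), and the library labelled WT held 1617 among 12179 (13.3%, 12.7 to 13.9). For comparison, T-only droplets passed the CD3 gate with 0 Csf1r UMIs (3155 in the library labelled Ythdf2 cKO and 3120 in the library labelled WT), and myeloid-only droplets passed the Csf1r gate with 0 CD3 UMIs (2115 in the library labelled Ythdf2 cKO and 2345 in the library labelled WT).

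The leukocytes were CD45+ cells sorted from tumours of C57BL/6 mice and sequenced from the 5′ end of transcripts on the 10x platform. There was 1 library of Ythdf2 cKO mice and 1 library of WT mice. Ythdf2 encodes a cytoplasmic reader of the m6A mark on RNA, and cKO stands for conditional knockout. No source used here gives the cell type in which the gene was deleted, the kind of tumour or the number of mice pooled. The deposited libraries held 11398 barcodes with 121321782 UMIs (Ythdf2 cKO) and 14404 barcodes with 128952491 UMIs (WT). Only 43 barcode sequences occurred in both, 1 of them in a mixed droplet of the library labelled Ythdf2 cKO and 4 in mixed droplets of the library labelled WT. Neither label had a second library, so no test was made and every difference describes these 2 libraries. Brackets give 95% intervals, which cover counting error only and take each UMI or droplet as independent.

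Ythdf2 RNA went against the label. Scaled to the total UMIs of the class as CPM, mixed droplets held 295 CPM of Ythdf2 in the library labelled Ythdf2 cKO (289 to 302) and 77.1 CPM in the library labelled WT (74.5 to 79.7). Myeloid-only droplets held 398 CPM (Ythdf2 cKO) and 67.5 CPM (WT), and T-only droplets held 69.4 CPM (Ythdf2 cKO) and 55.0 CPM (WT). Reads from the 5′ end may lie outside a deleted part, so this level checks no deletion. Why the level was higher in the library labelled Ythdf2 cKO, most of all in myeloid-only droplets, was not tested. Whether the labels of the libraries are right was not tested either. Each direction between the libraries below carries these reservations.

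A droplet barcode marks all RNA caught in 1 droplet, so cells that enter together share a barcode. Attached cells and cells that met by chance cannot be told apart in these data. Regulatory T cells, which depend on the transcription factor Foxp3, restrain other T cells and are common in tumours, whereas CD8 T cells kill target cells. Monocytes enter tumours with high Ly6c2 and can become macrophages that make complement component C1q, and both can answer interferon gamma by secreting the T cell chemokine Cxcl9.

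Nearly all mixed droplets held UMIs of markers of both lineages that the gates did not use. Shares of droplets with a UMI are not levels, and mixed droplets were deeper than single-lineage ones. At least 1 UMI of the T cell receptor constant genes Trac, Trbc1 or Trbc2 was found in 97.6% (Ythdf2 cKO) and 98.1% (WT) of mixed droplets. In myeloid-only droplets that share was 26.1% (Ythdf2 cKO) and 17.2% (WT). Lyz2, the lysozyme of myeloid cells, was found in 97.1% (Ythdf2 cKO) and 99.4% (WT) of mixed droplets, and in 26.2% (Ythdf2 cKO) and 50.3% (WT) of T-only droplets. Cd68, a lysosomal protein of macrophages, had a UMI in 97.1% (Ythdf2 cKO) and 98.5% (WT) of mixed droplets, and in 12.3% (Ythdf2 cKO) and 16.7% (WT) of T-only droplets. As class averages, Lyz2 stood at 1802 CPM (Ythdf2 cKO) and 3923 CPM (WT) in mixed droplets, against 59.4 CPM (Ythdf2 cKO) and 415 CPM (WT) in T-only droplets. Trac stood at 222 CPM (Ythdf2 cKO) and 132 CPM (WT) in mixed droplets, against 4.58 CPM (Ythdf2 cKO) and 3.50 CPM (WT) in myeloid-only droplets. RNA of both lineages was thus found by genes outside the rule in nearly all mixed droplets. The part of free RNA in these shares was not tested.

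The gate genes themselves are a description, since they chose the droplets. Mixed droplets held a median of 20 CD3 UMIs in the library labelled Ythdf2 cKO and 11 in the library labelled WT, while T-only droplets held 16 (Ythdf2 cKO) and 7 (WT). Their median of Csf1r was 7 UMIs (Ythdf2 cKO) and 6 UMIs (WT), against 6 (Ythdf2 cKO) and 4 (WT) in myeloid-only droplets. Just inside the CD3 threshold, 58 (Ythdf2 cKO) and 87 (WT) droplets past the Csf1r gate had 2 CD3 UMIs, and just outside it 340 (Ythdf2 cKO) and 249 (WT) had 1. Past the CD3 gate, 116 (Ythdf2 cKO) and 216 (WT) droplets had 2 Csf1r UMIs, and 237 (Ythdf2 cKO) and 330 (WT) had 1. Droplets just inside either threshold were deeper than single-lineage droplets, with median depths of 13412 to 17590 UMIs over both libraries.

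Mixed droplets were the deepest class. Their median depth was 25753 UMIs in the library labelled Ythdf2 cKO and 24546 UMIs in the library labelled WT. T-only droplets had medians of 6742 (Ythdf2 cKO) and 3688.5 (WT), and myeloid-only droplets 13067 (Ythdf2 cKO) and 8995 (WT). As a result mixed droplets carried 26.0% (Ythdf2 cKO) and 36.3% (WT) of all UMIs, well above their share of droplets. Among the deepest 10% of droplets, 58.3% (55.2 to 61.4) passed both gates in the library labelled Ythdf2 cKO and 67.1% (64.4 to 69.8) did in the library labelled WT. The next 10% held 24.6% (Ythdf2 cKO) and 39.4% (WT), and each of the 5 shallowest such bins held under 1% in both libraries. Within the deepest bin the 2 gate shares multiply to 586 droplets where 575 were found (Ythdf2 cKO), and to 717 where 817 were found (WT). In each of the other 9 bins fewer mixed droplets were found than the product gives, in both libraries.

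**Figure D1:**
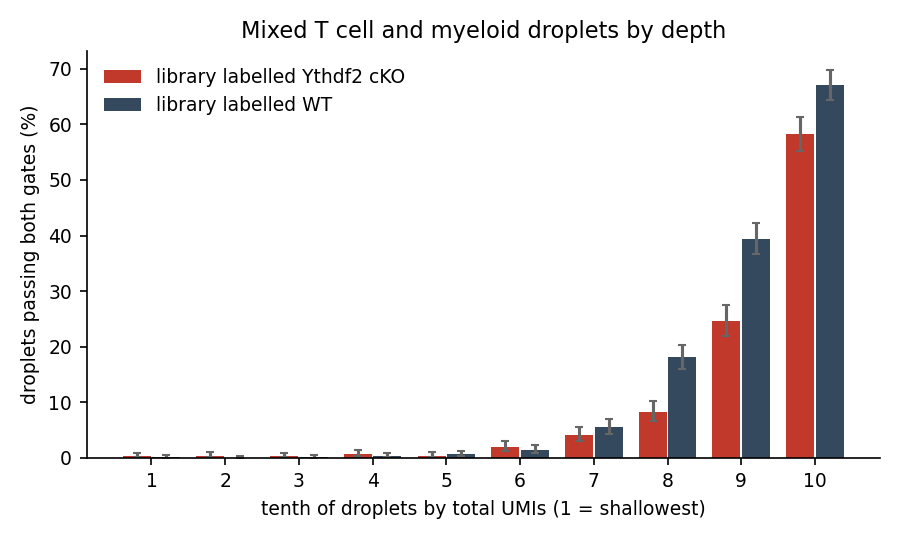
Percent of droplets that passed both gates, in 10 equal bins of droplets ranked on total UMIs, in the library labelled Ythdf2 cKO (red) and the library labelled WT (dark blue), with exact 95% binomial intervals. The share reaches 58.3% and 67.1% in the deepest bin and stays under 1% in the 5 shallowest.

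Set against the product of the 2 gate shares over all droplets, T and myeloid RNA met less often than independence gives, yet more often than NK or B cell RNA met myeloid RNA. The count over that product was 0.644 (0.605 to 0.686) in the library labelled Ythdf2 cKO, and 0.923 (0.879 to 0.969) in the library labelled WT. For NK and myeloid RNA (at least 2 UMIs of Ncr1 and Klrb1c for NK) it was 0.431 (Ythdf2 cKO) and 0.662 (WT). B and myeloid RNA (at least 2 UMIs of Cd79a and Ms4a1 for B) gave 0.431 (0.306 to 0.589) in the library labelled Ythdf2 cKO and 0.537 (0.432 to 0.660) in the library labelled WT. T and B RNA met at 0.286 (Ythdf2 cKO) and 0.461 (WT) of the product. Several pairs stood above T and myeloid RNA. Melanocytic RNA (Pmel and Dct) met myeloid RNA at 1.92 (Ythdf2 cKO) and 1.42 (WT) of the product, and T cell RNA at 1.04 (Ythdf2 cKO) and 1.11 (WT). The neutrophil genes Csf3r and Retnlg met myeloid RNA at 2.59 (Ythdf2 cKO) and 2.03 (WT), but 32.2% (Ythdf2 cKO) and 13.5% (WT) of myeloid-only droplets passed that gate, so it did not mark neutrophils alone. Plasmacytoid dendritic cell RNA (Siglech) met myeloid RNA at 0.842 (0.623 to 1.11) in the library labelled Ythdf2 cKO and at 0.507 (0.396 to 0.641) in the library labelled WT. These ratios moved with the threshold, and with every droplet thinned to 3000 UMIs before gating the T and myeloid ratio was 0.296 (Ythdf2 cKO) and 0.346 (WT), while a gate of 5 UMIs gave 0.700 (Ythdf2 cKO) and 1.34 (WT).

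**Figure D2:**
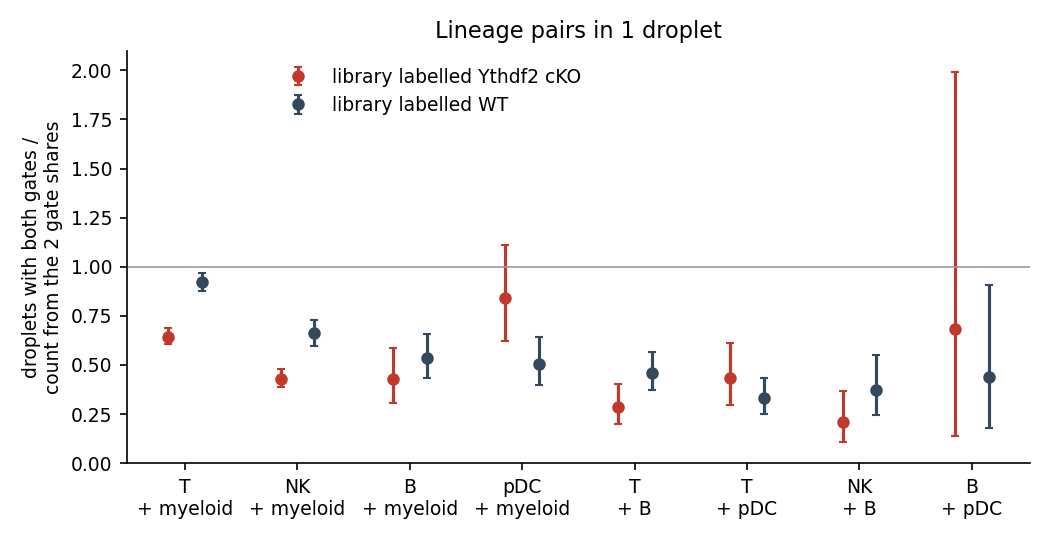
Droplets that passed the gates of both lineages, divided by the count that the 2 gate shares multiply to, for 8 pairs of lineages in the library labelled Ythdf2 cKO (red) and the library labelled WT (dark blue), with exact 95% Poisson intervals. T with myeloid RNA stands at 0.644 and 0.923, and T with B RNA at 0.286 and 0.461.

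Some RNA of both lineages was also found where neither should be made. Of the 260 droplets past the B gate in the library labelled Ythdf2 cKO, 12.7% passed the CD3 gate, 15.0% the Csf1r gate and 6.92% (4.15 to 10.7) both, at a median depth of 3755.5 UMIs. Of 485 such droplets in the library labelled WT, 19.2% passed the CD3 gate, 18.6% the Csf1r gate and 12.4% (9.57 to 15.6) both, at a median depth of 2584 UMIs. Free RNA and further mixed droplets cannot be told apart in these shares.

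Scrublet, which scores droplets by their likeness to simulated pairs, marked mixed droplets more than single-lineage ones. With the top 779 scores (Ythdf2 cKO) and the top 1187 scores (WT) marked, at 0.8% per 1000 droplets, 35.5% (32.5 to 38.6) of mixed droplets were marked in the library labelled Ythdf2 cKO and 32.9% (30.6 to 35.3) in the library labelled WT. T-only droplets were marked in 5.48% (Ythdf2 cKO) and 6.28% (WT), and myeloid-only droplets in 4.78% (Ythdf2 cKO) and 5.12% (WT). About the same part of all marked droplets was mixed in both libraries, 44.8%. Most mixed droplets were thus not marked at this rate.

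The T cell RNA of mixed droplets leaned toward regulatory T cells in both libraries. Foxp3 (GRCm38 chromosome X, 7573644 to 7595245, plus strand), the factor that defines these cells, had a UMI in 36.5% (33.4 to 39.6) of mixed droplets in the library labelled Ythdf2 cKO. A random T-only droplet joined with a random myeloid-only droplet would have given 10.1%. The share in the library labelled WT was 33.0% (30.7 to 35.4), where 12.2% would have been given. Myeloid-only droplets had a Foxp3 UMI in 0.946% (Ythdf2 cKO) and 1.15% (WT), and B-only droplets in 1.67% (Ythdf2 cKO, median depth 3528 UMIs) and 0.302% (WT, median depth 2308 UMIs). Thinned to 13948 UMIs per droplet, which left out 104 (Ythdf2 cKO) and 324 (WT) shallower ones, mixed droplets still held Foxp3 in 29.7% (Ythdf2 cKO) and 24.0% (WT).

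Depth raises such shares, so Foxp3 was also set against the CD3 UMIs of the same droplets. CD3 UMIs also chose the droplets, as Csf1r UMIs did for the myeloid ratios below. The cut at 2 UMIs therefore bears on both denominators, more so in shallow droplets. Its part in these ratios was not separated. Per 100 CD3 UMIs, mixed droplets held 5.75 Foxp3 UMIs against 1.76 in T-only droplets of the library labelled Ythdf2 cKO, a ratio of 3.26 (3.01 to 3.53). For the library labelled WT it was 5.85 against 3.26 in T-only droplets, a ratio of 1.79 (1.65 to 1.95). With droplets thinned to 3000 UMIs before gating, which left 141 (Ythdf2 cKO) and 147 (WT) mixed droplets, the log2 ratio was 0.95 (0.24 to 1.66) in the library labelled Ythdf2 cKO and 0.41 (-0.29 to 1.10) in the library labelled WT, where the interval included no difference. The unthinned level in mixed droplets was close between libraries, and the T-only level was the lower of the 2 in the library labelled Ythdf2 cKO.

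Tnfrsf4, the costimulatory receptor OX40 that tumour regulatory T cells carry, followed the same pattern. It had a UMI in 491 of 982 mixed droplets (Ythdf2 cKO) and in 47.9% of them (WT), where single-lineage droplets would have given 22.5% (Ythdf2 cKO) and 21.4% (WT). Its UMIs per CD3 UMI were 2.98-fold (2.85 to 3.11) those of T-only droplets in the library labelled Ythdf2 cKO and 1.87-fold (1.78 to 1.97) in the library labelled WT. Cd4, the coreceptor of helper and regulatory T cells, had a UMI in 37.0% (Ythdf2 cKO) and 32.5% (WT) of mixed droplets, where 13.6% (Ythdf2 cKO) and 17.5% (WT) would have been given. Per CD3 UMI it stood 2.48-fold (2.25 to 2.72) higher in mixed droplets in the library labelled Ythdf2 cKO and 1.40-fold (1.27 to 1.54) higher in the library labelled WT. At 3000 UMIs per droplet the Tnfrsf4 log2 ratio was 0.76 (0.35 to 1.18) in the library labelled Ythdf2 cKO and 0.39 (0.0024 to 0.78) in the library labelled WT. The Cd4 difference held in neither library at that depth, with log2 ratios of 0.47 (-0.41 to 1.34) in the library labelled Ythdf2 cKO and -0.071 (-0.91 to 0.77) in the library labelled WT.

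Cd8a and Cd8b1, the 2 chains of the CD8 coreceptor, did not share this excess in the library labelled Ythdf2 cKO. In the library labelled WT they showed a smaller excess or none, depending on the measure. Cd8a had a UMI in 51.5% (48.4 to 54.7) of mixed droplets in the library labelled Ythdf2 cKO, where 53.6% would have been given. Per CD3 UMI it stood at 0.895 times the T-only level (0.856 to 0.937) there, and at 0.986 times (0.920 to 1.06) in the library labelled WT. The share in the library labelled WT was 33.0% (30.7 to 35.4), where 21.1% would have been given, and its interval per CD3 UMI included the T-only level. Cd8b1 per CD3 UMI stood at 0.830 times the T-only level (0.799 to 0.863) in the library labelled Ythdf2 cKO and at 1.09 times (1.02 to 1.16) in the library labelled WT. The direction in the library labelled WT turned with deeper T-only droplets (log2 ratio -0.26, -0.35 to -0.16). At 3000 UMIs per droplet it was -0.27 (-0.78 to 0.25), where the interval included no difference.

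**Figure D3:**
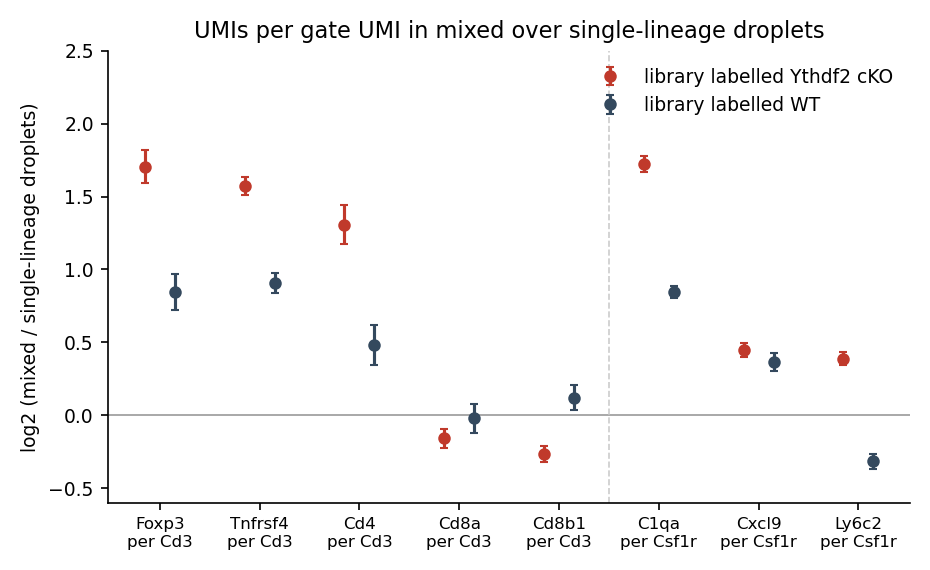
Log2 ratio of mixed over single-lineage droplets for 5 T cell genes per CD3 UMI and 3 myeloid genes per Csf1r UMI, in the library labelled Ythdf2 cKO (red) and the library labelled WT (dark blue), with 95% counting intervals and a line at 0 for no difference. Foxp3, Tnfrsf4, Cd4 and C1qa lie above 0 in both libraries, and Cd8a lies at or just below 0.

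Counting droplets in place of UMIs gave the same order. In the library labelled Ythdf2 cKO, 218 mixed droplets had Foxp3 without Cd8a and 366 had Cd8a without Foxp3, while the T-only counts were 239 and 1592. That is 0.596 Foxp3 droplets per Cd8a droplet (0.501 to 0.706) among mixed and 0.1501 (0.130 to 0.172) among T-only droplets, a ratio of 3.97 (3.20 to 4.92). Among droplets of the library labelled WT, 384 mixed droplets had Foxp3 alone and 384 had Cd8a alone, while the T-only counts were 328 and 607. There the ratio of mixed over T-only droplets was 1.85 (1.52 to 2.25). Droplets with both genes made up 14.3% (Ythdf2 cKO) and 9.28% (WT) of mixed droplets, against 1.71% (Ythdf2 cKO) and 0.673% (WT) of T-only droplets. Foxp3 and Cd8a thus met at 0.759 (Ythdf2 cKO) and 0.851 (WT) of the product of their shares in mixed droplets, and at 0.353 (Ythdf2 cKO) and 0.299 (WT) in T-only droplets. The mixed droplets with both were deep, with median depths of 41328 UMIs (Ythdf2 cKO) and 37240 UMIs (WT).

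**Figure D4:**
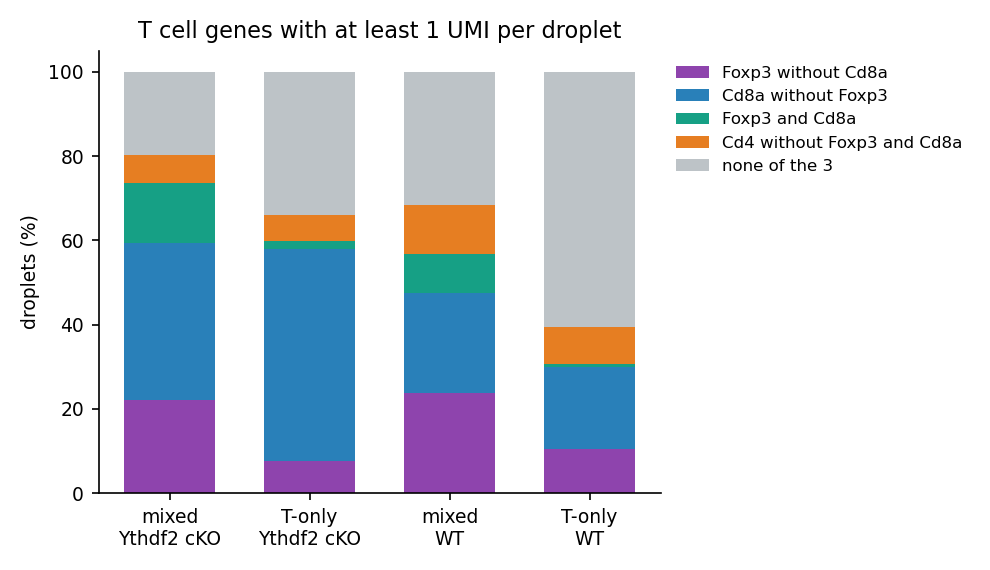
Percent of mixed and T-only droplets in each library with at least 1 UMI of Foxp3 without Cd8a, Cd8a without Foxp3, both, Cd4 alone or none of the 3. Foxp3 without Cd8a makes up 22.2% of mixed and 7.58% of T-only droplets in the library labelled Ythdf2 cKO, and 23.7% of mixed and 10.5% of T-only droplets in the library labelled WT.

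On the myeloid side, mixed droplets leaned toward macrophage RNA. C1qa (GRCm38 chromosome 4, 136895917 to 136898803, minus strand), a chain of complement C1q, had a UMI in 51.1% (47.9 to 54.3) of mixed droplets in the library labelled Ythdf2 cKO, where 31.7% would have been given. In the library labelled WT it had a UMI in 88.2% (86.6 to 89.8), where 69.9% would have been given. B-only droplets had one in 7.22% (Ythdf2 cKO) and 20.8% (WT), and T-only droplets in 9.60% (Ythdf2 cKO) and 27.6% (WT). Per 100 Csf1r UMIs, mixed droplets held 226 C1qa UMIs against 68.4 in myeloid-only droplets of the library labelled Ythdf2 cKO, a ratio of 3.30 (3.18 to 3.43). They held 785 against 437 in myeloid-only droplets of the library labelled WT, a ratio of 1.79 (1.74 to 1.85). With myeloid-only droplets limited to those at or above their median depth, a comparison added after the data were seen, the log2 ratio of 0.84 in the library labelled WT was 0.26. At 3000 UMIs per droplet the log2 ratio was 0.82 (0.53 to 1.10) in the library labelled Ythdf2 cKO and 0.67 (0.47 to 0.87) in the library labelled WT.

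Ly6c2, a surface protein of inflammatory monocytes that CD8 T cells also carry, had a UMI in 97.0% (Ythdf2 cKO) and 84.8% (WT) of mixed droplets, where 98.6% (Ythdf2 cKO) and 88.4% (WT) would have been given. Per Csf1r UMI it stood at 1.31 times the myeloid-only level (1.27 to 1.35) in the library labelled Ythdf2 cKO, and at 0.803 times (0.776 to 0.830) in the library labelled WT. Since 79.7% (Ythdf2 cKO) and 62.4% (WT) of T-only droplets also held Ly6c2, its ratio to Csf1r adds RNA of both lineages, and the direction in the library labelled WT turned in 3 alternatives. Cxcl9 had a UMI in 64.5% (61.4 to 67.5) of mixed droplets in the library labelled Ythdf2 cKO, where 48.2% would have been given, and in 38.8% (36.4 to 41.2) in the library labelled WT, where 26.2% would have been given. Per Csf1r UMI it stood 1.36-fold (1.32 to 1.41) higher in mixed droplets in the library labelled Ythdf2 cKO and 1.29-fold (1.23 to 1.34) higher in the library labelled WT. That direction turned at 3000 UMIs per droplet in the library labelled WT, with a log2 ratio of -0.86 (-1.26 to -0.45). In the library labelled Ythdf2 cKO it was -0.14 (-0.38 to 0.11), where the interval included no difference.

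Foxp3, Cd8a and Cd4 met the myeloid genes about as often as their separate shares give, and the clearest difference between T subsets was in Ly6c2. Over the 9 pairs of Foxp3, Cd8a or Cd4 with C1qa, Ly6c2 or Cxcl9, the count over the product of the 2 shares among mixed droplets lay between 0.947 and 1.17 in both libraries. Foxp3 with C1qa stood at 1.14 (0.987 to 1.302) in the library labelled Ythdf2 cKO and at 1.01 (0.917 to 1.10) in the library labelled WT. Cd8a with Cxcl9 stood at 1.05 (0.943 to 1.17) in the library labelled Ythdf2 cKO and at 1.17 (1.03 to 1.33) in the library labelled WT. Deep droplets hold more of every gene, which raises all such ratios, and that part was not tested. Droplets with Foxp3 without Cd8a held 2.44 C1qa UMIs per Csf1r UMI in the library labelled Ythdf2 cKO and 7.63 in the library labelled WT, and those with Cd8a without Foxp3 held 2.26 (Ythdf2 cKO) and 8.03 (WT). Ly6c2 per Csf1r UMI was 3.54 (3.36 to 3.73) with Foxp3 without Cd8a and 5.16 (4.96 to 5.36) with Cd8a without Foxp3 in the library labelled Ythdf2 cKO. The same values for the library labelled WT were 1.32 (1.25 to 1.39) and 1.80 (1.72 to 1.88), where 74.0% of the Foxp3 droplets and 91.7% of the Cd8a droplets held a Ly6c2 UMI. T-only droplets also hold Ly6c2, and its part from the T cell was not separated. Cxcl9 per Csf1r UMI was 2.91 (Ythdf2 cKO) and 0.815 (WT) in mixed droplets with Foxp3 without Cd8a, and 2.45 (Ythdf2 cKO) and 0.776 (WT) in those with Cd8a without Foxp3.

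All genes were next compared with a sum of 2 parts, the average T-only and the average myeloid-only profile of the same library, each given the weight that best matched the mixed total. The T part took a weight of 1.189 (Ythdf2 cKO) and 1.296 (WT) average T-only droplets, and the myeloid part 1.45 (Ythdf2 cKO) and 1.84 (WT) average myeloid-only droplets. This put 10127 UMIs of a mixed droplet in the T part and 20770 in the myeloid part in the library labelled Ythdf2 cKO. In the library labelled WT the T part held 6389 UMIs and the myeloid part 21055 UMIs. The T part was therefore 32.8% (Ythdf2 cKO) and 23.3% (WT) of mixed RNA. The median log2 ratio of observed to summed UMIs was 0.08 (Ythdf2 cKO, 12413 genes) and 0.02 (WT, 13278 genes). Because the weights were fitted to the same mixed totals, a median near 0 is partly set by the fit. The quartiles of this ratio were -0.08 and 0.25 (Ythdf2 cKO), and -0.14 and 0.17 (WT). Past 1.5-fold, 7.40% of genes were higher than the sum and 2.63% lower in the library labelled Ythdf2 cKO. The corresponding shares in the library labelled WT were 4.09% higher and 5.20% lower. Of 11967 genes measured in both, 126 were higher in both libraries (19.7% of those higher in the library labelled Ythdf2 cKO and 46.8% of those higher in the library labelled WT), and 150 were lower in both (49.7% of those lower in the library labelled Ythdf2 cKO and 32.9% of those lower in the library labelled WT). Intervals of these folds cover the counts of the mixed droplets only.

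The regulatory T list stood furthest above the sum among the T cell lists. Of its 12 members, 10 were past 1.5-fold higher and 0 lower in the library labelled Ythdf2 cKO (median log2 0.98), and 9 were higher and 0 lower in the library labelled WT (median 0.73). Foxp3 itself had 1433 UMIs where the sum gave 422 in the library labelled Ythdf2 cKO, which is 3.40-fold (3.22 to 3.58). It had 1348 where the sum gave 656 in the library labelled WT, 2.06-fold (1.95 to 2.17). Izumo1r, the folate receptor 4 of regulatory T cells, stood at 2.95-fold (Ythdf2 cKO) and 1.81-fold (WT). Il2ra, the high-affinity interleukin 2 receptor chain, stood at 2.23-fold (Ythdf2 cKO) and 1.72-fold (WT). Ctla4, an inhibitory receptor, stood at 2.02-fold (Ythdf2 cKO) and 1.71-fold (WT). Il10 and Capg, which myeloid cells also make, were the 2 members of the list under 1.5-fold in both libraries.

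The cytotoxic and activation lists had medians near the sum, and gamma delta T genes lay below it. Of 12 cytotoxic effector genes, 0 were past 1.5-fold in either direction in the library labelled Ythdf2 cKO (median log2 -0.13) and 1 was higher in the library labelled WT (median 0.17), namely Gzmb, a granzyme, at 1.053-fold (Ythdf2 cKO) and 1.602-fold (WT). Cd8a was at 0.949-fold (Ythdf2 cKO) and 1.15-fold (WT). Among 12 genes of T cell activation and checkpoints, Tnfrsf9, the costimulatory receptor 4-1BB, was higher in both libraries at 2.20-fold (Ythdf2 cKO) and 1.64-fold (WT). Nr4a1, an early response factor downstream of the T cell receptor, stood at 0.745-fold (Ythdf2 cKO) and 0.521-fold (WT). Most of its summed UMIs came from the myeloid part, 7074 of 8451 (Ythdf2 cKO) and 8800 of 10002 (WT). Its level in the T cells of mixed droplets cannot be read from this fold. The list's medians were 0.04 (Ythdf2 cKO) and 0.0056 (WT). Naive T genes had medians of -0.28 (Ythdf2 cKO) and -0.12 (WT). Of the gamma delta T genes, 0 of 4 were past 1.5-fold higher and 1 lower in the library labelled Ythdf2 cKO (median -0.47), and 0 of 6 were higher and 4 lower in the library labelled WT (median -0.79), with Trdc, the delta chain constant gene, at 0.709-fold (Ythdf2 cKO) and 0.701-fold (WT).

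Among 9 general T cell genes outside the gate, all stood above the sum in both libraries, with medians of 0.32 (Ythdf2 cKO) and 0.40 (WT). Cd5, a receptor that dampens T cell receptor signals, was highest at 2.07-fold (1.97 to 2.17) in the library labelled Ythdf2 cKO and 1.87-fold (1.78 to 1.962) in the library labelled WT. Trbc1 was at 1.10-fold (Ythdf2 cKO) and 1.09-fold (WT).

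Macrophage and monocyte lists lay on opposite sides of the sum. Of 14 macrophage genes, 12 were past 1.5-fold higher and 0 lower in the library labelled Ythdf2 cKO (median log2 1.23), and 2 were higher and 0 lower in the library labelled WT (median 0.48). Pf4, the chemokine platelet factor 4, stood at 3.84-fold (Ythdf2 cKO) and 1.55-fold (WT). Folr2, the folate receptor of resident-like macrophages, stood at 3.23-fold (Ythdf2 cKO) and 1.86-fold (WT), and C1qa at 2.86-fold (Ythdf2 cKO) and 1.43-fold (WT). Trem2, a lipid-sensing receptor, stood at 1.78-fold (Ythdf2 cKO) and 1.45-fold (WT). Spp1, which encodes osteopontin, was nearest to the sum at 1.38-fold (Ythdf2 cKO) and 1.06-fold (WT).

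Of 9 monocyte genes, 0 were higher and 6 were past 1.5-fold lower in the library labelled Ythdf2 cKO (median log2 -0.70), and 0 were higher and 8 lower in the library labelled WT (median -1.09). Hp, the haemoglobin-binding protein haptoglobin, had 2227 UMIs where the sum gave 5222 in the library labelled Ythdf2 cKO, 0.426-fold (0.409 to 0.445), and 0.285-fold (0.267 to 0.304) in the library labelled WT. Chil3, a chitinase-like protein, was at 0.562-fold (Ythdf2 cKO) and 0.287-fold (WT). Vcan, the matrix proteoglycan versican, was at 0.573-fold (Ythdf2 cKO) and 0.307-fold (WT). Ly6c2 was at 0.775-fold (Ythdf2 cKO) and 0.470-fold (WT) once the RNA of both lineages was summed. Ccr2, the receptor that draws monocytes into tissue, was at 0.813-fold (Ythdf2 cKO) and 0.538-fold (WT).

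**Figure D5:**
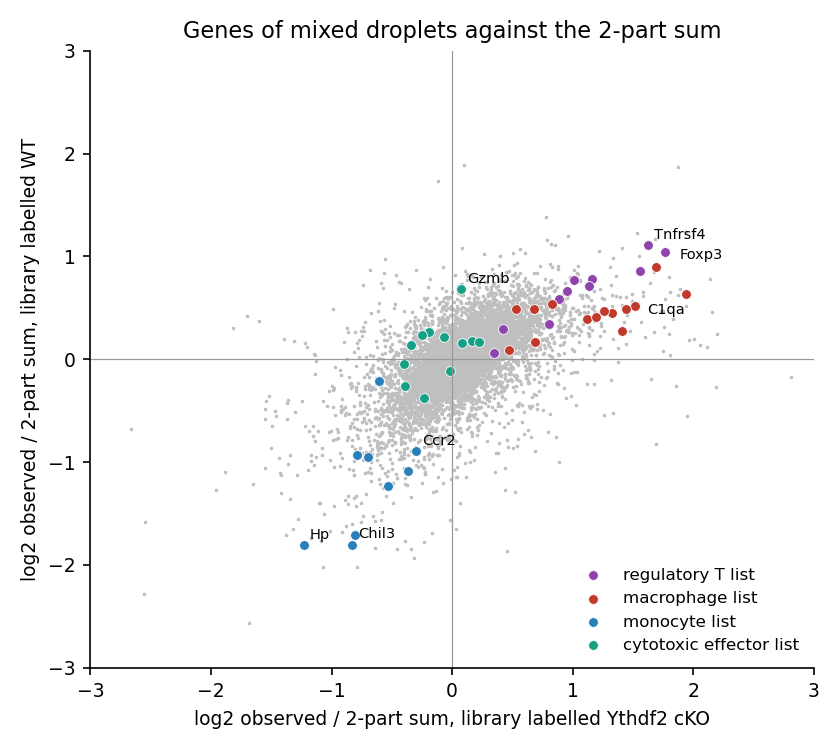
Log2 ratio of observed UMIs in mixed droplets to the 2-part sum, per gene, in the library labelled Ythdf2 cKO (x axis) and the library labelled WT (y axis), with 4 gene lists coloured and 8 genes outside the axes not drawn. Regulatory T and macrophage genes lie toward the upper right, monocyte genes toward the lower left and cytotoxic effector genes near the centre.

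Interferon genes of mixed droplets stayed near the sum of their parts. Of 19 interferon gamma response genes, 0 were past 1.5-fold in either direction in the library labelled Ythdf2 cKO (median log2 0.06), and 1 was higher and 1 lower in the library labelled WT (median -0.14). Iigp1, an immunity-related GTPase, stood highest at 1.42-fold (Ythdf2 cKO) and 1.54-fold (WT). Cxcl10, a chemokine for activated T cells, was at 0.717-fold (Ythdf2 cKO) and 0.848-fold (WT), and Cxcl9 at 1.19-fold (Ythdf2 cKO) and 1.01-fold (WT). Per Csf1r UMI, Cxcl9 had stood at 1.36 (Ythdf2 cKO) and 1.29 (WT) times the myeloid-only level. None of the 13 type I interferon genes was past 1.5-fold in either library, with medians of 0.03 (Ythdf2 cKO) and -0.10 (WT). The MHC class II list, whose proteins show peptides to the CD4 lineage, had a median of 0.37 (1 of 8 higher) in the library labelled Ythdf2 cKO and -0.28 (0 of 8 higher or lower) in the library labelled WT. H2-Aa was at 1.33-fold (Ythdf2 cKO) and 0.856-fold (WT).

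Genes of cell contact showed no common shift, with medians of -0.02 (Ythdf2 cKO) and -0.05 (WT) over 15 genes. Vcam1, a ligand for integrins of lymphocytes, was the member past 1.5-fold higher in both libraries, at 2.57-fold (2.20 to 2.99) in the library labelled Ythdf2 cKO and 1.75-fold (1.68 to 1.82) in the library labelled WT. Itga4, the integrin chain that binds it, was at 0.665-fold (Ythdf2 cKO) and 0.653-fold (WT). The T cell adhesion receptor Cd2 was at 1.48-fold (Ythdf2 cKO) and 1.44-fold (WT), while Icam1 was at 0.886-fold (Ythdf2 cKO) and 0.840-fold (WT). Cd80, a ligand of Cd28 and Ctla4, was at 0.912-fold (Ythdf2 cKO) and 0.618-fold (WT). Cell cycle genes were above the sum, with 4 of 8 past 1.5-fold in the library labelled Ythdf2 cKO (median 0.60) and 3 of 8 in the library labelled WT (median 0.55), Top2a, the DNA topoisomerase of dividing cells, at 1.47-fold (Ythdf2 cKO) and 1.58-fold (WT). Of 8 genes of dissociation stress, 0 were past 1.5-fold in either library.

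The 12 genes that stood furthest above the sum in both libraries at once included 10 with a higher CPM in T-only than in myeloid-only droplets of both libraries. Fam83g had 101 UMIs in 70 mixed droplets of the library labelled Ythdf2 cKO and 105 in 83 of the library labelled WT, at 3.67-fold (2.99 to 4.46) in the library labelled Ythdf2 cKO and 3.66-fold (2.997 to 4.44) in the library labelled WT. Neb, the muscle filament protein nebulin, was at 3.22-fold (Ythdf2 cKO) and 2.25-fold (WT), with 17.5 CPM (Ythdf2 cKO) and 23.5 CPM (WT) in T-only droplets and under 1 CPM in myeloid-only droplets. Itgb8, an integrin chain that activates TGF-beta, was at 2.93-fold (Ythdf2 cKO) and 2.01-fold (WT). Ikzf4, which encodes Eos, a partner of Foxp3, was at 2.52-fold (Ythdf2 cKO) and 1.97-fold (WT). Klrg1, a lectin-like receptor of effector lymphocytes and some regulatory T cells, was at 2.32-fold (Ythdf2 cKO) and 2.08-fold (WT). Foxp3, Tnfrsf4 and Cd5 were also among the 12, together with Ncmap, Ccdc184 and Aunip.

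Ccl8, a monocyte-attracting chemokine, was the member of these 12 with more RNA in myeloid-only than T-only droplets in both libraries. It had 7979 UMIs in 254 mixed droplets where the sum gave 2081 in the library labelled Ythdf2 cKO, 3.83-fold (3.75 to 3.92). In the library labelled WT it had 31879 UMIs in 1111 mixed droplets, 2.36-fold (2.33 to 2.39). The 3 droplets richest in Ccl8 held 18.6% of its mixed UMIs in the library labelled Ythdf2 cKO and 5.20% in the library labelled WT.

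The 12 genes furthest below the sum in both libraries were led by genes of rare cells and early monocytes. Jchain, the joining chain of secreted antibodies, had 5 UMIs (Ythdf2 cKO) and 7 UMIs (WT) in mixed droplets where the sum gave 315 (Ythdf2 cKO) and 367 (WT), but a single T-only droplet held 98.4% of the T-only Jchain UMIs in each library. A single myeloid-only droplet also held 98.4% of the 126 myeloid-only Jchain UMIs of the library labelled WT. The Jchain value therefore rests on 1 droplet in the library labelled Ythdf2 cKO and on 2 droplets in the library labelled WT. Prtn3, the granule protease proteinase 3, was at 0.311-fold (0.256 to 0.373) in the library labelled Ythdf2 cKO and 0.169-fold (0.138 to 0.205) in the library labelled WT, with 25.9% (Ythdf2 cKO) and 62.5% (WT) of its myeloid-only UMIs in 1 droplet. Ctsg, Ms4a3 and Efr3b likewise had 25.9% to 95.7% of their myeloid-only UMIs in 1 droplet. F5, coagulation factor V, was spread over more droplets, at 0.386-fold (0.315 to 0.468) in the library labelled Ythdf2 cKO and 0.306-fold (0.225 to 0.407) in the library labelled WT, and Hp was the most abundant of the 12. The others were Rab44, Selp, Abca6, Cyp39a1 and Ifitm5, each with 11 to 74 UMIs in mixed droplets of a library.

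RNA of further lineages was present in some mixed droplets. At least 2 UMIs of the NK genes Ncr1 and Klrb1c were found in 18.1% (Ythdf2 cKO) and 18.2% (WT) of mixed droplets, against 11.2% (Ythdf2 cKO) and 8.14% (WT) of T-only droplets. The 8 NK markers summed to 875 CPM (Ythdf2 cKO) and 334 CPM (WT) in mixed droplets, and to 2181 CPM (Ythdf2 cKO) and 902 CPM (WT) in T-only droplets. Klra8, an NK receptor of the Ly49 family, had 0 UMIs in mixed droplets of the library labelled Ythdf2 cKO, which allows up to 0.0989 CPM, and 448 UMIs in mixed droplets of the library labelled WT. This was not particular to mixed droplets. T-only droplets held 1 UMI (Ythdf2 cKO) and 229 UMIs (WT) of it, and myeloid-only droplets 0 (Ythdf2 cKO) and 151 (WT). The neutrophil gate was passed by 35.2% (Ythdf2 cKO) and 20.04% (WT) of mixed droplets, against 0.507% (Ythdf2 cKO) and 0.737% (WT) of T-only droplets. Myeloid-only droplets passed it in 32.2% (Ythdf2 cKO) and 13.5% (WT), so it does not mark a further lineage by itself. The 6 neutrophil markers summed to 183 CPM (Ythdf2 cKO) and 231 CPM (WT) in mixed droplets, and to 411 CPM (Ythdf2 cKO) and 313 CPM (WT) in myeloid-only droplets. B cell genes Cd79a and Ms4a1 passed the gate in 1.83% (Ythdf2 cKO) and 3.71% (WT) of mixed droplets, and the 6 B markers summed to 132 CPM (Ythdf2 cKO) and 140 CPM (WT), against 7456 CPM (Ythdf2 cKO) and 5837 CPM (WT) in B-only droplets.

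Melanocytic genes, which mark pigment cells outside the CD45 gate, differed between the libraries. Pmel and Dct passed the gate in 4.79% (3.54 to 6.31) of mixed droplets in the library labelled Ythdf2 cKO and in 24.6% (22.5 to 26.7) in the library labelled WT. The 6 melanocytic markers summed to 218 CPM (Ythdf2 cKO) and 427 CPM (WT) in mixed droplets, and to 9.94 CPM (Ythdf2 cKO) and 519 CPM (WT) in T-only droplets. Although 5 of 6 were past 1.5-fold above the sum in the library labelled Ythdf2 cKO (median log2 1.78), 3 droplets held 96.0% of the Pmel UMIs there. Leaving out all droplets past a B, plasmacytoid, NK or melanocytic gate gave a mixed share of 11.4% in the library labelled WT. In those droplets the T and myeloid ratio was 0.483 (Ythdf2 cKO) and 0.676 (WT). Foxp3 per CD3 UMI still stood higher in mixed than in T-only droplets, with log2 ratios of 1.70 (Ythdf2 cKO) and 0.93 (WT). The part of these lineages in the other results was not tested further.

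Between the libraries, mixed droplets of the library labelled Ythdf2 cKO held more cytotoxic, interferon and monocyte RNA and less macrophage RNA than those of the library labelled WT. Of 8204 genes of at least 10 CPM, 9.39% were past 1.5-fold higher and 8.93% lower, with a median log2 ratio of -0.02. All 19 interferon gamma response genes were higher (median 1.23), as were all 13 type I interferon genes (median 1.43), against 18 of 19 and 13 of 13 in myeloid-only droplets, where 8.59% of all genes were higher and 16.2% lower. Cxcl9 averaged 659 CPM (650 to 668) in mixed droplets of the library labelled Ythdf2 cKO and 178 CPM (174 to 182) in those of the library labelled WT. Of 12 cytotoxic genes, 10 were higher (median 1.42), against 11 of 12 in T-only droplets, with Gzmb at 389 CPM (Ythdf2 cKO) and 80.9 CPM (WT). Macrophage genes were lower in 12 of 14 (median -1.69), against 13 of 14 in myeloid-only droplets (median -2.16), with C1qa at 598 CPM (Ythdf2 cKO) and 1942 CPM (WT). Monocyte genes were higher in 7 of 9 (median 1.43), against 6 of 9 in myeloid-only droplets (median 0.98). Cell cycle genes were lower in 7 of 8 (median -0.92), against 8 of 8 in myeloid-only droplets (median -2.68). MHC class II genes were higher in 8 of 8 (median 1.03), against 4 of 8 in myeloid-only droplets (median 0.59).

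Regulatory T genes stood higher in mixed droplets of the library labelled Ythdf2 cKO than in those of the library labelled WT, past 1.5-fold in 6 of 11 (median 0.62), whereas in T-only droplets 0 of 11 were past 1.5-fold (median -0.26) and 2.72% of all genes were higher and 4.92% lower. Foxp3 stood at 47.2 CPM (44.8 to 49.7) in mixed droplets of the library labelled Ythdf2 cKO and at 30.4 CPM (28.8 to 32.0) in those of the library labelled WT. In T-only droplets it stood at 41.1 CPM (Ythdf2 cKO) and 60.1 CPM (WT). The general T cell list was higher in mixed droplets as well, in 8 of 12 members (median 0.68) against 0 of 12 in T-only droplets. Here the list included the gate genes Cd3d, Cd3e and Cd3g, which chose the droplets. Cd3e (log2 ratio 0.74) and Cd3g (0.70) were among the 8, so this count is partly set by the gate. The T part was 32.8% (Ythdf2 cKO) and 23.3% (WT) of the RNA of mixed droplets. Per CD3 UMI, which removes that part, Foxp3 was close between the libraries, at 5.75 (5.45 to 6.07) per 100 CD3 UMIs in the library labelled Ythdf2 cKO and 5.85 (5.54 to 6.19) in the library labelled WT.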

How the data were processed

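The deposited values were counts of UMIs per gene and barcode, 1 matrix per library, made by the authors with Cell Ranger 5.0.1 on mm10, with Seurat 4.0.4 also listed, per the submitters' processing notes. The matrix header names Cell Ranger 5.0.0. No source used here gives the annotation release or the options. Coordinates come from a GRCm38 annotation.

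Barcodes with at least 200 genes and at most 10% mitochondrial UMIs were kept (9865 in the library labelled Ythdf2 cKO, 12179 in the library labelled WT), and no doublet was removed, so Scrublet scores were used for description only. Median depth was 7404 UMIs (Ythdf2 cKO) and 4760 UMIs (WT) over deposited barcodes. The members and gene lists were chosen with earlier results of these data known. Expected shares joined 1 T-only and 1 myeloid-only droplet. The 2-part sum used Poisson maximum likelihood weights over all genes except the 4 gate genes, and a gene counted when at least 20 UMIs were observed or expected. A change of 1.5-fold was used in place of a test, since each label has 1 library. Between libraries, genes of at least 10 CPM were compared with a pseudocount of 1 CPM. Intervals are exact at 95%, except those of ratios of 2 counts, and a count of 0 was given a limit of 3 counts.

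Named genes had at least 20 expected UMIs in both libraries and stood on the same side in both, ranked by the smaller log2 ratio, the first 12 per side. Mitochondrial, ribosomal, haemoglobin, immunoglobulin and T cell receptor segment genes, unnamed models, Y-linked genes and Xist were not eligible. Members of lists were chosen as examples by the same rank, and others for their role after their values were seen, as was the count of UMIs in the richest droplets. The calculation was tested on simulated data. Python 3.11.15, numpy 2.4.6, scipy 1.17.1, pandas 2.3.3 and scanpy 1.11.5 were used. The alternatives tried are given with the closing results.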

Additional observations from a re-analysis of the deposited data

Results flagged for a closer look

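Cd8b1, the beta chain of the CD8 coreceptor, lay on opposite sides of the T-only level in the 2 libraries. Its log2 ratio per CD3 UMI in mixed over T-only droplets was -0.27 in the library labelled Ythdf2 cKO and 0.12 in the library labelled WT. Ly6c2 per Csf1r UMI likewise lay on opposite sides of the myeloid-only level, with a log2 ratio of 0.39 in the library labelled Ythdf2 cKO and -0.32 in the library labelled WT. Neither contrast was stable. The Cd8b1 ratio of the library labelled WT was -0.26 (-0.35 to -0.16) with deeper T-only droplets. At 3000 UMIs per droplet it was -0.27 (-0.78 to 0.25), where the interval included no difference. The Ly6c2 ratio of that library turned in 3 alternatives. It was 0.043 (-0.014 to 0.100) with deeper myeloid-only droplets and 0.051 (-0.011 to 0.114) with a gate of 5 UMIs, and both intervals included no difference. Equal weights gave 0.18, without an interval. With 1 library per label neither difference was tested.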

How the results depend on the processing

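No paired analysis was possible because each label has 1 library and the libraries carry no replicate numbers, and for the same reason no replicate could be left out. Values below are log2 ratios of mixed over single-lineage droplets per gate UMI unless named otherwise. In every alternative run, Foxp3 per CD3 UMI lay between 0.95 and 1.86 (Ythdf2 cKO) and between 0.41 and 1.08 (WT), Tnfrsf4 between 0.76 and 1.70 (Ythdf2 cKO) and between 0.39 and 1.16 (WT), and C1qa between 0.82 and 1.82 (Ythdf2 cKO) and between 0.26 and 0.97 (WT). Over results that answer a comparison, 169 values stayed within their counting error or within 1.5 times, 83 moved and 6 turned. Over the other results 706 stayed, 289 moved and 10 turned. The cause of these moves was not tested.

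With at least 2 UMIs asked for, observed over expected shares were 2.49 (Ythdf2 cKO) and 1.71 (WT) for C1qa, 1.48 (Ythdf2 cKO) and 1.71 (WT) for Cxcl9, and 4.01 (Ythdf2 cKO) and 2.997 (WT) for Foxp3. Genes above the sum numbered 1669 (Ythdf2 cKO) and 1174 (WT) with a minimum of 5 UMIs and genes below it 786 (Ythdf2 cKO) and 1483 (WT). At a fold of 2 there were 322 (Ythdf2 cKO) and 123 (WT) above and 89 (Ythdf2 cKO) and 237 (WT) below. With no minimum and a pseudocount of 1 there were 2745 (Ythdf2 cKO) and 2362 (WT) above and 2336 (Ythdf2 cKO) and 3067 (WT) below.

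At most 5% mitochondrial UMIs gave C1qa 1.82 (Ythdf2 cKO) and 0.97 (WT), and Ly6c2 -0.42 (WT). Leaving out droplets with B, plasmacytoid, NK or melanocytic gates gave, in the library labelled Ythdf2 cKO, C1qa 1.48, Cd4 1.12, Cxcl9 0.53, Ly6c2 0.46 and a pair ratio of 0.483. For WT it gave Cxcl9 0.45, a pair ratio of 0.676, a mixed share of 11.4%, a plasmacytoid list median of 0.10 (against -0.87) and Jchain 0.39 (against -5.71) over the sum. That Jchain value rests on 5 UMIs, and its interval (-1.24 to 1.61) included no difference. Single-lineage droplets with at most 1 UMI of the other lineage gave C1qa 1.62 (Ythdf2 cKO) and 0.78 (WT), and Tnfrsf4 0.77 (WT).

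Weighting every droplet equally gave C1qa 1.43, Cxcl9 0.57, Ly6c2 0.22 and Tnfrsf4 1.70 (Ythdf2 cKO), and Cd8a 0.24, Cxcl9 0.64, Foxp3 1.08, Tnfrsf4 1.16 and Ly6c2 0.18 (WT), the last with its direction turned. A gate of 3 UMIs gave Cxcl9 0.54 and a mixed share of 8.29% (Ythdf2 cKO), and Cxcl9 0.58, Ly6c2 -0.20, a pair ratio of 1.02 and a mixed share of 10.95% (WT).

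A gate of 5 UMIs and single-lineage droplets at or above their median depth were chosen after seeing the data. The gate of 5 gave Cxcl9 0.74, Ly6c2 0.49, a pair ratio of 0.700, a mixed share of 6.34% and a neutrophil list median of 0.15 against -0.61 (Ythdf2 cKO). For WT it gave C1qa 0.71, Cxcl9 0.88, a pair ratio of 1.34, a mixed share of 7.22% and Ly6c2 0.051 (-0.011 to 0.114), turned. The deeper single-lineage droplets gave C1qa 1.24, Cd4 1.46, Cd8a -0.30, Cxcl9 0.34, Foxp3 1.86, Ly6c2 0.25 and Tnfrsf4 1.42 (Ythdf2 cKO). For WT they gave C1qa 0.26, Cd8a -0.44, Tnfrsf4 0.78, 351 genes above the sum, and turned values for Cd8b1 (-0.26), Ly6c2 (0.043) and Abca6 over the sum (0.087). The Abca6 value rests on 11 UMIs. The intervals of Ly6c2 (-0.014 to 0.100) and Abca6 (-0.92 to 0.93) included no difference.

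Thinning each droplet to 3000 UMIs before gating moved most values. It gave C1qa 0.82, Cd4 0.47, Cxcl9 -0.14 (turned, -0.38 to 0.11), Foxp3 0.95, Ly6c2 0.15, Tnfrsf4 0.76, a pair ratio of 0.296, a mixed share of 1.54%, 184 genes above and 119 below the sum, and a neutrophil list median of 0.72 (turned) for Ythdf2 cKO. For WT it gave C1qa 0.67, Cd8a -0.62, Foxp3 0.41, Ly6c2 -0.50, Tnfrsf4 0.39, a pair ratio of 0.346, a mixed share of 1.59%, and 231 genes above and 182 below the sum. Turned for WT were Cd4 (-0.071), Cd8b1 (-0.27), Cxcl9 (-0.86), the erythroid and platelet list (1.11 against -0.77), Ccdc184 over the sum (-0.39) and Efr3b over the sum (0.75). The Ccdc184 and Efr3b values rest on 1 UMI each and show no direction. The intervals of Cd4, Cd8b1, Ccdc184 and Efr3b all included no difference.

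Depth limits these results, since a shallow droplet passes both gates less often and a share with a UMI depends on how many UMIs were read. Intervals take UMIs of 1 droplet as independent and so are too narrow. With 1 library per label, library and genotype cannot be told apart.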

Other observations

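Few dendritic cell genes were past 1.5-fold above the 2-part sum, too few to set apart from the share over all genes. They were Xcr1 and Clec9a in the library labelled Ythdf2 cKO and Fscn1 in the library labelled WT. In mixed droplets of the library labelled Ythdf2 cKO, 2 of 10 were past 1.5-fold above it (median log2 0.34), where 7.40% of all genes were. For the library labelled WT it was 1 of 10 (median -0.10), where 4.09% of all genes were. Xcr1, a chemokine receptor of cross-presenting dendritic cells, stood at 2.66-fold (2.33 to 3.03) in the library labelled Ythdf2 cKO and at 1.44-fold (1.15 to 1.79) in the library labelled WT. Clec9a, a receptor of the same cells, stood at 1.63-fold (Ythdf2 cKO) and 1.13-fold (WT). Fscn1, the actin-bundling protein of mature dendritic cells, stood at 1.39-fold (Ythdf2 cKO) and 1.56-fold (WT). The difference between the libraries was not tested.

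Genes of neutrophils had medians of -0.61 (Ythdf2 cKO) and -0.23 (WT) against the sum. In the library labelled Ythdf2 cKO 4 of 6 were past 1.5-fold lower, where 2.63% of all genes were. The median of that library was 0.15 with a gate of 5 UMIs and 0.72 at 3000 UMIs per droplet, with 3 genes left. Plasmacytoid dendritic cell genes had medians of 0.05 (Ythdf2 cKO) and -0.87 (WT), with 4 of 6 lower in the library labelled WT, where 5.20% of all genes were. Without droplets past a B, plasmacytoid, NK or melanocytic gate, the median of the library labelled WT was 0.10.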
